A study of Homo sapiens with 21 samples.

Results

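The TNF superfamily consists of cytokines related to tumour necrosis factor and of the receptors that bind them. It was followed here through RNA sequencing of THP1 cells, a human monocytic line from acute myeloid leukemia. Genes were taken by symbol, namely every TNFSF and TNFRSF symbol with a number, together with TNF, LTA, LTB, LTBR, FAS and FASLG, which gave 39 of the 20423 genes in the deposited table. They comprised 15 ligands, 6 receptors with a death domain, 4 decoy receptors, 13 receptors that bind TRAF adaptors, and 1 row for the TNFSF12-TNFSF13 readthrough transcript. A mean of at least 10 normalized counts over all 19 libraries was reached by 26 members, and 13 stayed below it. A normalized count is the number of reads in a gene divided by 1 size factor per library.

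The study asked how IRF2BP2, a transcriptional cofactor first described as a partner of IRF2, and the basic leucine zipper factors ATF7 and JDP2 bear on inflammatory gene expression. The knockdown arm held 2 libraries of an shRNA control and 3 libraries of each of 2 IRF2BP2 hairpins delivered in pLKO.1, a lentiviral vector that drives hairpins from a U6 promoter. The knockout arm held 2 libraries of a knockout control, and 2 libraries for each of 4 clones grown from single cells, of which 2 were edited in ATF7 and 2 in JDP2 with Lenti-CRISPRv2. There was 1 wild-type library, and all cells were untreated as far as the labels say. With 2 clones for each knockout, a property of a clone and an effect of the edit cannot be told apart within a clone. The labels do not say whether replicates were separate cultures, so p-values reflect no more than the variation among these libraries, which may be technical.

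Most TNF superfamily ligands are made as trimeric proteins anchored in the cell membrane, and several are released by proteases. Receptors with a death domain can start apoptosis or necroptosis through adaptors such as FADD and TRADD, decoy receptors bind ligand with no full signal, and the remaining receptors recruit TRAF proteins and activate NF-kB. Monocytes and macrophages are known as a main source of TNF and BAFF, and they carry both TNF receptors.

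Between 28.7 and 60.2 M (mega) recovered reads fell in genes in each library. IRF2BP2 stood at 16973 and 18382 normalized counts in shRNA control and at 9456 to 16649 in 5 of the 6 knockdown libraries. The highest of these 5, shRNA 2 replicate 2, was close to the lower shRNA control and above knockout control replicate 2 (14859). At 25651, the library labelled IRF2BP2 shRNA 2 replicate 3 exceeded either shRNA control, so directions for the knockdown include a library that goes against its label. ATF7 and JDP2 messages were not lower in their own knockouts, which says nothing about the edits, since a frameshift may spare the transcript. A library was called far from the median where more than 20 percent of its genes differed over 2-fold from their median level. That share was 48.5 percent in shRNA 1 replicate 3, 38.2 percent in JDP2 clone 1 replicate 2 and 25.6 percent in shRNA 2 replicate 3. All 10 monocytic markers reached a mean of 10, although CD14, which defines mature monocytes, stood between 2.16 and 156.8. Medians over libraries were 30625 for CEBPA, 30399 for LYZ and 13735.5 for SPI1, and at most 2677 (CD68) for the rest. CEBPA, LYZ and SPI1 therefore weigh most in their sum. Summed, the monocytic markers ranged from 56343 to 62865 in shRNA control and from 68167 to 215443 in the knockdown, with no overlap, and from 55691 to 80514 in the knockout control, 59547 to 101415 in the ATF7 knockout and 75727 to 153512 in the JDP2 knockout. The summed B and plasma cell markers ranged from 349 to 2367 in the groups compared. Those of T and NK cells ranged from 5283 to 29362, nearly all of it NKG7, while CD3D had a median of 0 over libraries. Erythroid markers summed to at most 60.2, epithelial to 162, dendritic cell to 148 and stromal to 551. Their part in the results was not tested.

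Among ligands, levels per kilobase of exon were compared over the 5 control libraries (shRNA control, wild type and knockout control). TNFSF13B, which encodes the B cell survival factor BAFF, had the highest median among ligands at 1551 normalized counts per kilobase. TNFSF9, the ligand of the costimulatory receptor TNFRSF9, followed at 400.5, TNFSF13 (APRIL, a factor for plasma cells) at 152 and TNFSF14 (LIGHT, which binds HVEM and the lymphotoxin beta receptor) at 133. Lower levels were found for LTB (61.7), the membrane partner of lymphotoxin, for TNF itself (45.5), for TNFSF10 (21.9), which encodes TRAIL, and for TNFSF4 (11.3), which encodes the OX40 ligand. Unstimulated THP1 cells thus carried TNF message at a small share of the BAFF level on the per-kilobase scale.

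Of the ligands, TNFSF13B had 3389 and 3263 in the shRNA control libraries, 4743 in wild type and 5313 and 4767 in the knockout control libraries. It ran from 2700.3 to 6288 with a median of 4524 in the 6 knockdown libraries and stood at 7379, 7093, 3389 and 3467 in the ATF7 knockout and 5199, 5807, 4158 and 3304 in the JDP2 knockout (clone 1 replicates first, then clone 2, here and below). The knockdown libraries overlapped every other group, both knockout controls lay above both shRNA controls, and both libraries of ATF7 clone 1 lay above all other libraries. TNF had 105 and 47.8 in the shRNA control libraries, 76.3 in wild type and 187 and 27.6 in the knockout control libraries. It ran from 33.1 to 351 with a median of 146 in the knockdown libraries and stood at 257, 52.1, 78.7 and 40.8 in the ATF7 knockout and 162, 55.9, 145 and 19.1 in the JDP2 knockout. TNF was therefore spread over more than 10-fold with overlap between all groups.

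Among the receptors with a death domain, TNFRSF1A, the TNF receptor found on most cell types, had the highest level of all 39 genes, with a control median of 2585 normalized counts per kilobase. TNFRSF10B, a TRAIL receptor, stood at 567, TNFRSF21 (a receptor with roles in neurons and lymphocytes) at 355, FAS, the receptor of FASLG, at 83.0, the TRAIL receptor TNFRSF10A at 30.0 and TNFRSF25, a T cell receptor for TNFSF15, at 3.02. In normalized counts, TNFRSF1A had 15471 and 8914 in the shRNA control libraries, 10354 in wild type and 13736 and 8117 in the knockout control libraries. It ran from 3479 to 16287 with a median of 10510.0 in the knockdown libraries and stood at 13418, 14914, 13281 and 18768 in the ATF7 knockout and 14314, 32681, 16070.3 and 16736 in the JDP2 knockout. The highest value was in JDP2 clone 1 replicate 2 and the lowest in IRF2BP2 shRNA 1 replicate 3, both among the 3 libraries far from the median. TNFRSF10B had 3133 and 2924 in the shRNA control libraries, 2789.8 in wild type and 3238 and 2009 in the knockout control libraries, and ran from 2669 to 3593 with a median of 2977 in the knockdown libraries. It stood at 2799.7, 2099.9, 3113 and 1703 in the ATF7 knockout and 2687, 1065, 2468 and 1802 in the JDP2 knockout. The knockdown libraries overlapped every other group, and all 4 JDP2 libraries lay below the shRNA control and wild-type libraries.

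Among the decoy receptors, TNFRSF10D, a TRAIL receptor with a truncated death domain, had a control median of 169 per kilobase, TNFRSF10C, a TRAIL receptor held to the membrane by a lipid anchor, 38.4, and TNFRSF6B, a secreted decoy for FASLG, TNFSF14 and TNFSF15, 10.5. TNFRSF10D had 572 and 676 in the shRNA control libraries, 646 in wild type and 599 and 558 in the knockout control libraries. It ran from 418 to 883 with a median of 517 in the knockdown libraries and stood at 649, 486, 506 and 327 in the ATF7 knockout and 712, 145, 580.4 and 377 in the JDP2 knockout. TNFRSF10C had 67.7 and 73.1 in the shRNA control libraries, 88 in wild type and 71.7 and 43.4 in the knockout control libraries, and ran from 42.4 to 92.6 with a median of 62.4 in the knockdown libraries. It stood at 128, 125, 108 and 189.7 in the ATF7 knockout and 72.7, 272, 88.3 and 112 in the JDP2 knockout, so all 4 ATF7 libraries lay above the 5 controls.

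Among the TRAF-binding receptors, TNFRSF1B, the TNF receptor typical of blood and immune cells, had a control median of 2068 per kilobase. LTBR, the lymphotoxin beta receptor, stood at 929, TNFRSF12A (the TWEAK receptor) at 269.6, TNFRSF14 (HVEM) at 227, TNFRSF13C (the BAFF receptor) at 47.2 and TNFRSF19 at 46.9. TNFRSF11A (RANK) stood at 12.1, TNFRSF8 (CD30) at 3.87 and TNFRSF4 (OX40) at 3.06. LTBR had 8141 and 4921 in the shRNA control libraries, 5837 in wild type and 9309.6 and 4473 in the knockout control libraries in normalized counts. It ran from 1941 to 11309.8 with a median of 7037 in the knockdown libraries and stood at 8527, 7422, 4774 and 6114 in the ATF7 knockout and 8029.6, 7959, 8936 and 6729.7 in the JDP2 knockout, with overlap between all groups of 2 or more libraries. Ordered by control median, the 26 members formed 25 neighbouring pairs. Control ranges did not overlap for only 3 of these pairs (LTBR over TNFRSF10B, TNFSF14 over FAS, and TNFRSF6B over TNFRSF8). For the other 22 the ranges overlapped, and whether the order held within each library was not tested.

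**Figure D1:**
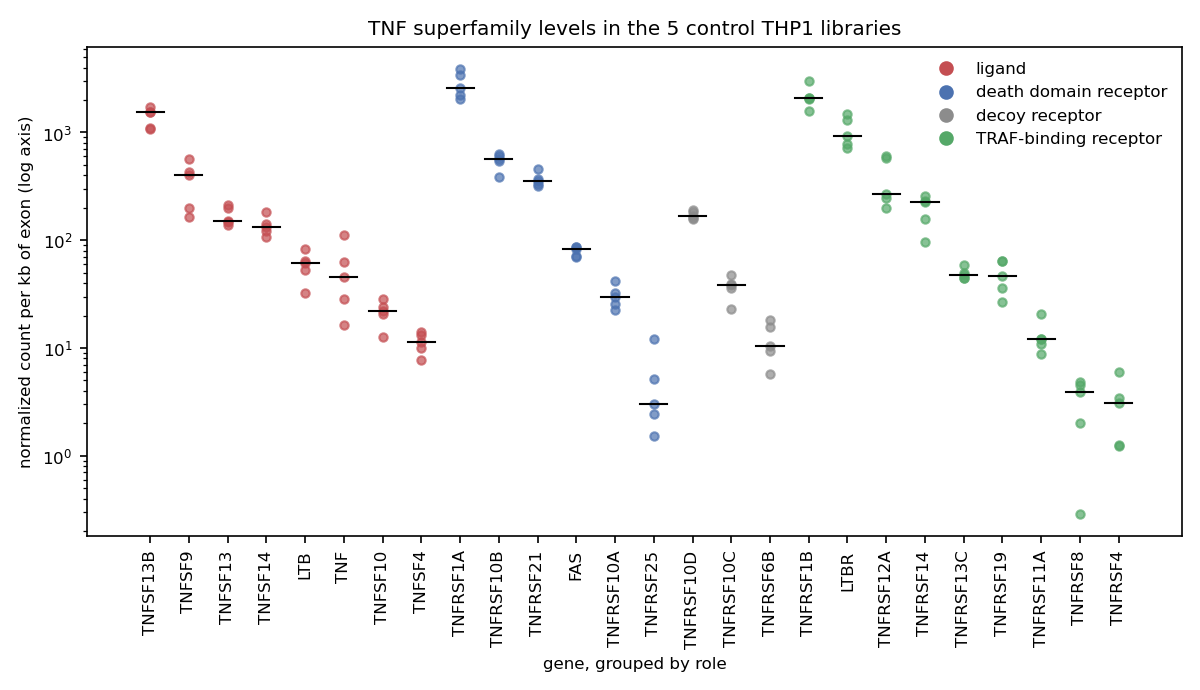
Normalized counts per kilobase of exon (log axis) of the 26 members with a mean of at least 10, in the 5 control libraries, grouped by role and ordered by median. Each point is 1 library and the bar is the median; TNFRSF1A, TNFRSF1B and TNFSF13B have medians from 1551 to 2585 per kilobase, and TNFRSF4 and TNFRSF25 near 3.

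Knockdown and shRNA control libraries were set against each other to ask which family members depend on IRF2BP2. Promoter windows are shown for the member that fell, TNFRSF19, and for some of the members with high values in the knockdown libraries, TNFSF10, TNFSF4 and TNFRSF1B. TNFRSF8, TNFRSF21 and TNFSF14 are not printed, though all 6 knockdown libraries exceeded both shRNA controls for them, which did not hold for TNFRSF1B. The windows come from RefSeq (GRCh38.p14), which held windows of 300 bases (250 before to 50 after a start) for 27 of the 39 members, and the 250 bases before the start are printed. TNFRSF19 has a window at chr13:23570162-23570411 on the plus strand and a second start further downstream. TNFSF10 lies at chr3:172523431-172523680 (minus), TNFSF4 at chr1:173205533-173205782 (minus) and TNFRSF1B at chr1:12166741-12166990 (plus). Capitals mark GAAANNGAAA, the core of the interferon-stimulated response element bound by IRF proteins, here read on the opposite strand.
TNFRSF19: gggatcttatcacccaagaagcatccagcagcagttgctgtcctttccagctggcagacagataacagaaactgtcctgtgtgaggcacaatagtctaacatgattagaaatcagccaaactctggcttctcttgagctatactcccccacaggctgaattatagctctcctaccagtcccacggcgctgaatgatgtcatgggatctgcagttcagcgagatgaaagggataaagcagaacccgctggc
TNFSF10: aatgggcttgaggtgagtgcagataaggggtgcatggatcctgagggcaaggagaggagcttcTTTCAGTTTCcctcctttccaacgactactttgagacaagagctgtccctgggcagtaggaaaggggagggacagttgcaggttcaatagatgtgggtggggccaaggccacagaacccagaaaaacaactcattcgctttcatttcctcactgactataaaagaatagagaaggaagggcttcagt
TNFSF4: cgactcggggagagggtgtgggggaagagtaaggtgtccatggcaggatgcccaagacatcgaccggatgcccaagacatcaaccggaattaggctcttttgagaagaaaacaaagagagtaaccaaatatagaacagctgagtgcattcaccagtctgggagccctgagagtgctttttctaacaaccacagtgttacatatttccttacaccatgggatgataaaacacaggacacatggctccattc
TNFRSF1B: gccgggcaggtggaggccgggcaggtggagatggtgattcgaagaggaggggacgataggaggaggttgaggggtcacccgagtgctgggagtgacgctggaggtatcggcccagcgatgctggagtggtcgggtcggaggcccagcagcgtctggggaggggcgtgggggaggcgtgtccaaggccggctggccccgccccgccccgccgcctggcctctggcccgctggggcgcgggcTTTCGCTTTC
The element began at -187 relative to the RefSeq start of TNFSF10 and at -10 relative to that of TNFRSF1B, and these letters were not in either TNFRSF19 window or in that of TNFSF4. Searched on both strands, it was in 3.57 percent of all 35116 windows, and in those of 6 of the 27 members (FASLG, TNFRSF1B, TNFSF10, TNFSF13B, TNFSF14 and TNFSF9). The AP-1 letters TGANTCA were in 7.71 percent of all windows and in those of 5 members (FAS, TNFRSF8, TNFRSF9, TNFSF14 and TNFSF15). The letters TGACGTCA of the cyclic AMP response element, a site of ATF7 and JDP2 type dimers, were in 1.85 percent of all windows and in none of these members. A kappa B type sequence of the form GGGNNNTTCC was in 6.52 percent of all windows and in those of LTA, LTB, TNFRSF9 and TNFSF13. The shares are per window and the counts per member, and the 27 members held 36 windows, so they are not directly comparable. A match describes letters in a window and is not a site.

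In the libraries labelled as knockdown, 1 of 25 tested members passed the limma test at an adjusted p under 0.05. This was TNFRSF19 (also called TROY), a TRAF-binding receptor without a death domain, known from skin, brain and intestinal stem cells. It fell, and no member rose. Over all 12738 genes tested, 1.54 percent were called higher and 0.251 percent lower. The median log2 change was 0.20 over the 25 members and -0.03 over all genes. The summed monocytic markers, weighted towards CEBPA, LYZ and SPI1, were also higher in all 6 knockdown libraries than in both shRNA controls. So were 10.9 percent of all genes taken singly. The part of these markers in the members' values was not tested.

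TNFRSF19 (chromosome 13, 23570370 to 23676104, plus strand, GENCODE 29 on hg38) had 329 and 326 in the shRNA control libraries, 239.5 in wild type and 137 and 186 in the knockout control libraries. It had 62.4, 44 and 38.8 in the libraries of IRF2BP2 shRNA 1 and 55, 46.4 and 9.65 in those of shRNA 2. The highest of the 6 knockdown libraries was thus below the lowest of the other 13, which was 110.0 in the JDP2 knockout. Group means were 328 ± 2.34 (SD, n = 2) and 42.7 ± 18.2 (SD, n = 6). On the log2(value + 1) scale TNFRSF19 fell by 3.10 ± 0.60 (SE; limma adjusted p = 0.0219), and each hairpin showed it (-2.76 for shRNA 1 and -3.43 for shRNA 2). The lowest library, labelled shRNA 2 replicate 3, rested on 8 reads and is the one whose IRF2BP2 message goes against its label. Without it the change was -2.73 with a limma adjusted p of 0.00365. In bulk RNA, fewer cells that express a gene and less message per cell cannot be told apart. The call was lost when either shRNA control library was left out (adjusted p = 0.337 without replicate 1 and 0.208 without replicate 3), with the change still at -3.09 and -3.10.

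TNFSF10, the TRAIL gene whose promoter is printed above, had 43.8 and 71.2 in the shRNA control libraries, 82.7 in wild type and 76.1 and 98.1 in the knockout control libraries. It had 96.3, 264 and 669.7 with shRNA 1 and 213, 356 and 328 with shRNA 2. All 6 knockdown libraries lay above both shRNA controls, but the lowest (shRNA 1 replicate 1) lay within the range of the other control groups. The log2 difference was 2.28 ± 0.57 (SE; 95 percent interval 1.05 to 3.50), with a limma adjusted p of 0.0686, so it was not called. TNFSF4, whose protein engages OX40 on T cells, had 39.8 and 52.5 in the shRNA control libraries, 44.5 in wild type and 30.4 and 55.3 in the knockout control libraries. It had 90.8, 192 and 425 with shRNA 1 and 141, 169 and 142 with shRNA 2, above all 13 other libraries, of which the highest was 69.4. Its log2 difference was 1.88 ± 0.49 (SE; 0.82 to 2.95), with a limma adjusted p of 0.0806.

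TNFRSF21 had 1323 and 1206 in shRNA control, and 2199.5, 3001 and 3461 with shRNA 1 and 1402, 2169.8 and 3323 with shRNA 2. The knockdown libraries lay above both shRNA controls, with a log2 difference of 0.97 ± 0.36 (SE; limma adjusted p = 0.246). Wild type had 1276 and the knockout control libraries 1653 and 1136 for TNFRSF21, so the lowest knockdown library lay within the range of these other controls. TNFRSF1B had 7814 and 6010.3 in the shRNA control libraries, 7789 in wild type and 11303 and 7722 in the knockout control libraries. It had 19334, 14492 and 7722 with shRNA 1 and 16949, 16624 and 51276 with shRNA 2, with shRNA 1 replicate 3 inside the shRNA control range. Its log2 difference was 1.37 ± 0.56 (SE) and its limma adjusted p 0.288. TNFRSF8 differed by 1.90 (limma adjusted p = 0.275), with 236 in shRNA 2 replicate 3 and 29.4 to 39.8 in the other 5 knockdown libraries. The shRNA controls had 17.9 and 7.50 for TNFRSF8, and leaving out any 1 library gave 1.33 to 2.48. The BAFF receptor gene TNFRSF13C was at 186 and 197 in shRNA control and ran from 59.6 to 131 with a median of 103 in the knockdown libraries (adjusted p = 0.285).

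**Figure D2:**
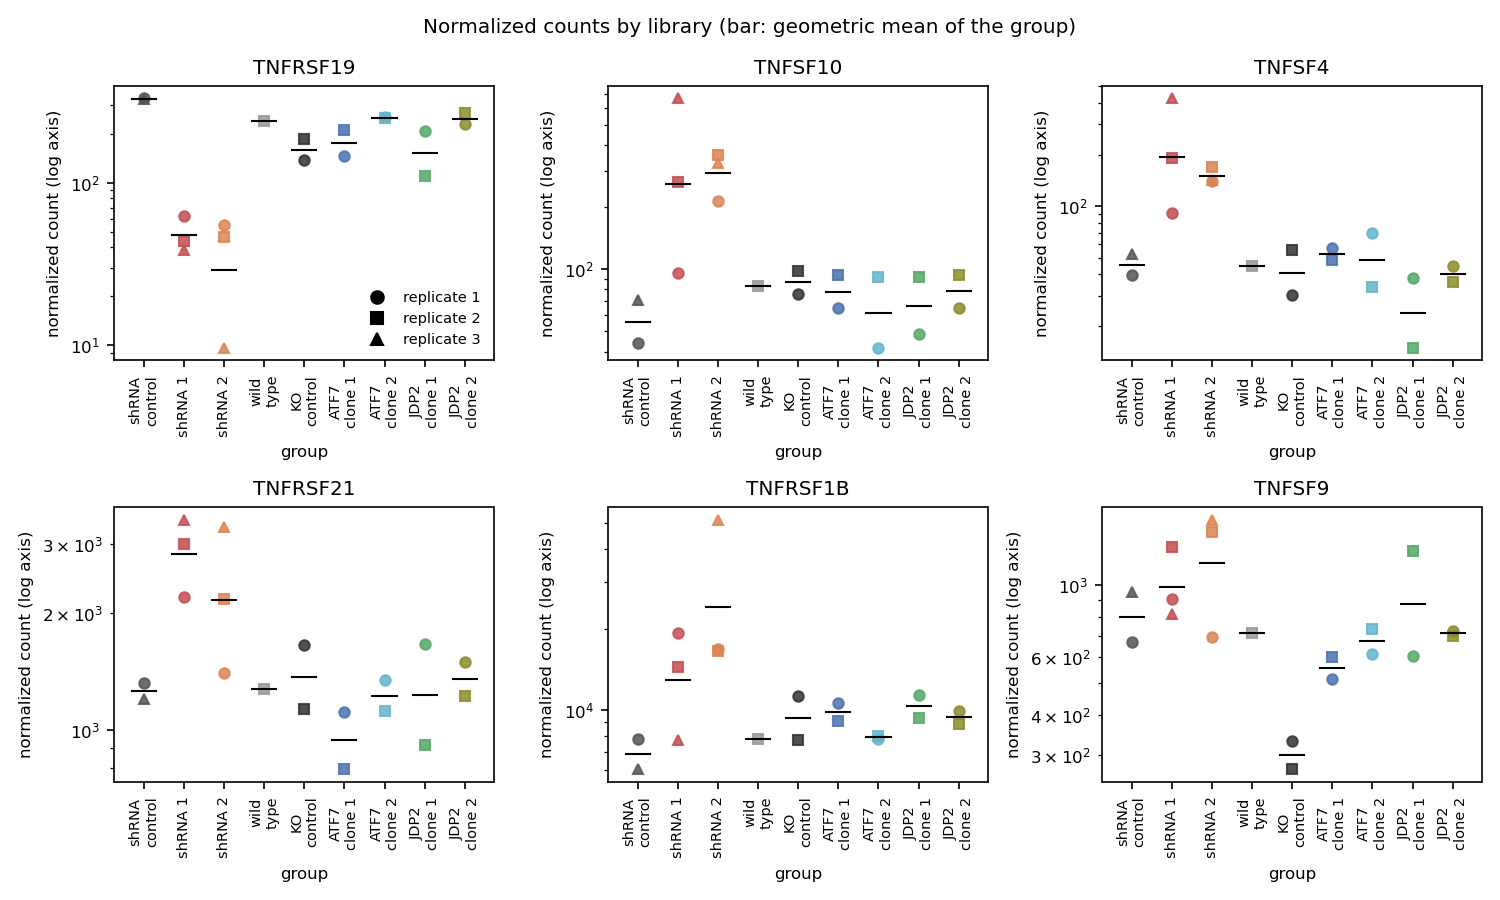
Normalized counts (log axes) of 6 members by group, each point 1 library with its replicate number as the marker and the bar the geometric mean of the group. TNFRSF19 is at 9.65 to 62.4 in the knockdown libraries and at 110.0 or more elsewhere, TNFSF4 is above 90 only there, and TNFSF9 is lowest in the knockout control.

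Whether these members passed depended on the controls and the tool. In all, 8 of 25 members had an unadjusted p under 0.05 in limma, as did 14 percent of all genes. With edgeR, TNFRSF19 alone was called, where 0.973 percent of all genes were, and with DESeq2 TNFRSF19, TNFRSF1B, TNFSF4 and TNFSF10 were, where 5.4 percent of all genes were. When limma used all 5 control libraries, 6 of 26 members passed, where 7.54 percent of all genes were called higher and 4.77 percent lower. These were TNFRSF8 (2.27), TNFSF4 (1.95), TNFSF10 (1.92) and TNFRSF21 (0.92) as higher, and TNFRSF19 (-2.59) and TNFRSF13C (-1.01) as lower. The main fit, whose only controls were the shRNA control libraries, held shRNA 1 replicate 3 and shRNA 2 replicate 3 of the libraries far from the median. In that fit without them, TNFRSF19 (-2.65), TNFSF10 (1.89), TNFSF4 (1.62), TNFRSF1B (1.29) and TNFSF13 (0.87) passed. They were 5 of 25 members, where 10.1 percent of all genes passed. In the authors' deposited table for the knockdown, TNFRSF19 (-2.20) was called lower, and TNFSF4 (1.85), TNFSF10 (1.84), TNFRSF1B (1.23), TNFRSF21 (0.92) and TNFSF9 (0.85) were called higher. That table called 10.6 percent of genes higher and 6.84 percent lower. Column labels number the shRNA control, wild-type and knockout control libraries alike as controls. The authors' comparison may therefore rest on all 5, and not on the shRNA controls alone as in the main fit. These analyses share the knockdown libraries.

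Without a test, group ranges were also compared for the 26 members. Against shRNA control, TNFRSF8, TNFSF4, TNFSF10, TNFRSF21 and TNFSF14 were higher in all 6 knockdown libraries, 5 of 26 members, where 10.9 percent of all genes were. TNFRSF10A, TNFRSF19 and TNFRSF13C were lower in all 6, where 11 percent of all genes were. Against all 13 other libraries, only TNFSF4 was higher in every knockdown library (3.69 percent of all genes) and only TNFRSF19 was lower (2.29 percent). These counts carry no test and are to be read against the shares of all genes. The remaining members had differences between -1.19 (TNFRSF25) and 0.86 (TNF and TNFSF13), none of them called. The 95 percent interval was 0.01 to 1.21 for TNFSF14 (0.61) and 0.00 to 1.72 for TNFSF13, and it included 0 for TNF (-0.65 to 2.36), FAS (-0.32 to 0.95), TNFRSF10B (-0.61 to 0.58) and LTBR (-1.22 to 1.14).

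**Figure D3:**
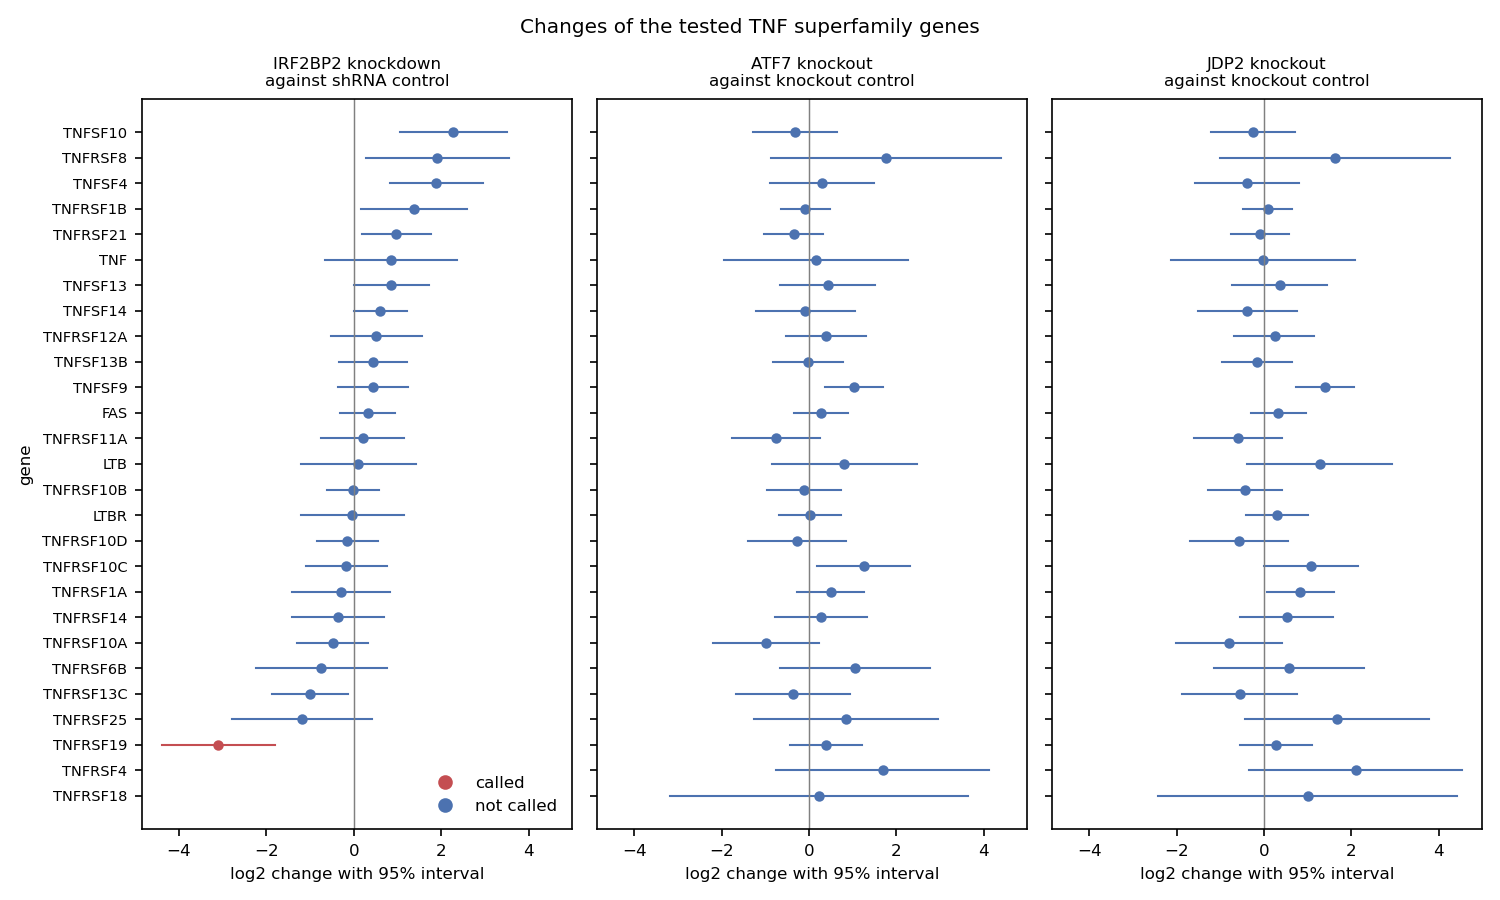
Log2 differences with 95 percent intervals for the tested members in each comparison with its control, from limma. Only TNFRSF19 in the knockdown (-3.10) is called, and the knockout intervals for most members include 0.

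Both TNF receptors are the members with the highest control medians, and their ratio within a library does not depend on the size factor. This ratio was chosen after its values were seen and is given with no test. TNFRSF1B over TNFRSF1A, in normalized counts, was 0.505 and 0.674 in shRNA control, 0.752 in wild type, and 0.823 and 0.951 in the knockout control. It ranged from 0.426 to 0.795 in the ATF7 knockout and from 0.287 to 0.799 in the JDP2 knockout. In the knockdown libraries it was 2.04, 1.51 and 2.22 with shRNA 1, and 1.49, 1.28 and 3.15 with shRNA 2. All 6 knockdown libraries were thus above all 13 others, and how many other pairs of genes separate in this way was not counted. Per exon length the order is the same, with the lowest knockdown library at 1.36 and the highest other library, knockout control replicate 2, at 1.01. In shRNA 1 replicate 3 the ratio was high through a low TNFRSF1A (3479), and in shRNA 2 replicate 3 through a high TNFRSF1B (51276).

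**Figure D4:**
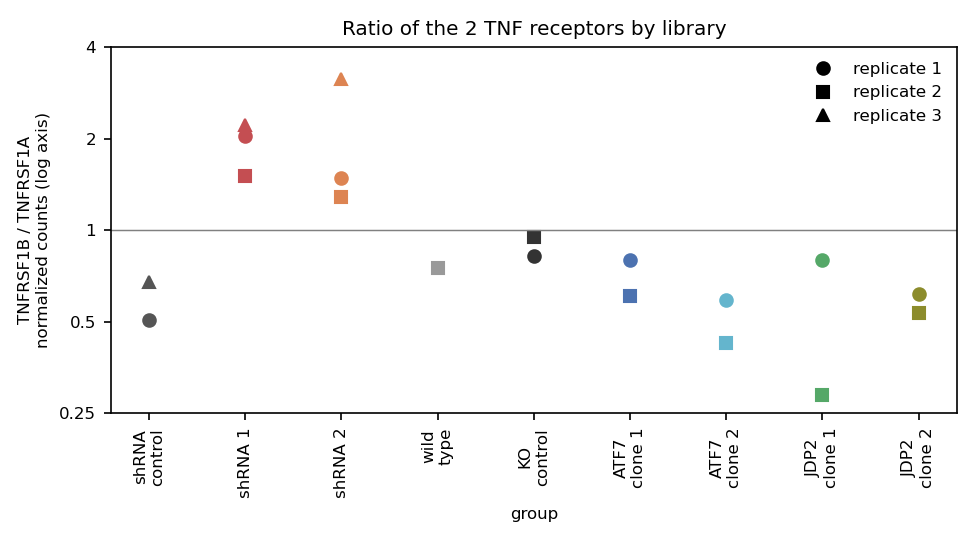
Ratio of TNFRSF1B to TNFRSF1A normalized counts (log axis) in each of the 19 libraries by group, with the replicate number as the marker. The 6 knockdown libraries lie between 1.28 and 3.15 and the other 13 between 0.287 and 0.951.

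The comparisons of the ATF7 and JDP2 knockouts with the knockout control asked whether either factor affects these genes, and they share the same 2 control libraries. No member of the 27 tested was called by limma in either, where 0.25 percent of all genes were called for ATF7 and 0.674 percent for JDP2. At an unadjusted p under 0.05 there were 2 members for ATF7 and 3 for JDP2, where 7.09 and 16.8 percent of all genes were. In edgeR 0 members passed in either, and DESeq2 called 0 for ATF7 and 1 for JDP2, TNFSF9, where 4.81 percent of all genes were called. The median log2 difference of the members was 0.27 for ATF7 and 0.28 for JDP2, against 0.04 and 0.00 over all genes.

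TNFSF9 (chromosome 19, 6530999 to 6535928, plus strand) had 667 and 953 in the shRNA control libraries, 714 in wild type and 331 and 271 in the knockout control libraries. It stood at 515, 599.8, 613 and 736 in the ATF7 knockout and 604, 1275, 726 and 698 in the JDP2 knockout, all above both knockout controls, and ran from 692 to 1588 with a median of 1108 in the knockdown libraries. For ATF7 the log2 difference was 1.02 ± 0.31 (SE; 0.36 to 1.69; limma adjusted p = 0.308). For JDP2 it was 1.40 ± 0.31 (SE; 0.73 to 2.06; limma adjusted p = 0.0695). The knockout control libraries were the lowest of all 19 for this gene, and the other 3 control libraries lay inside the range of the knockout libraries. With all 5 controls the difference was 0.21 for ATF7 and 0.58 for JDP2 (adjusted p = 0.824 and adjusted p = 0.267). Without JDP2 clone 1 replicate 2, the JDP2 difference was 1.17 and passed (adjusted p = 0.042).

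The TRAIL decoy TNFRSF10C differed by 1.25 ± 0.49 (SE) for ATF7 and by 1.07 ± 0.49 for JDP2, with 0.585 and 0.298 as limma adjusted p-values. TNFRSF1A differed by 0.83 ± 0.36 for JDP2 (adjusted p = 0.277). TNFRSF10A, a TRAIL receptor that can signal death, had 88.6 and 95.6 in the shRNA control libraries, 76.3 in wild type and 123 and 67.1 in the knockout control libraries. It had 62.2, 52.2, 41.6 and 52.7 in the JDP2 knockout, below all 5 controls, and 64.7, 39, 85.6 and 19.2 in the ATF7 knockout, which overlapped them. For JDP2 its log2 difference was -0.80 ± 0.56 (SE; limma adjusted p = 0.49).

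By ranges alone, all 4 ATF7 libraries lay above both knockout controls for TNFRSF4, TNFRSF10C, TNFSF9 and TNFRSF6B, 4 of 26 members, where 7.89 percent of all genes did. All 4 JDP2 libraries lay above them for TNFRSF4, TNFRSF25, TNFRSF10C, TNFRSF1A and TNFSF9 (13.1 percent of all genes), and below them for TNFRSF10A (14.1 percent). Against all 5 controls, TNFRSF10C remained for ATF7 (2.2 percent of all genes higher) and TNFRSF10A for JDP2 (6.19 percent lower). In the authors' deposited tables, none of 25 members was called for ATF7, where 0.315 percent of genes were. These tables too may rest on all 5 controls, where the limma tests used the knockout control alone. TNFRSF4 was called for JDP2 in the authors' deposited table, at 1.33 with an adjusted p of 0.0412, where 7.55 percent of genes were called higher. TNFRSF4 stood at 8.43, 106, 8.96 and 12.3 in the JDP2 libraries, so the value of clone 1 replicate 2 was far above the other 3.

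The effect in the knockdown arm was tested against that in the knockout arm by an interaction contrast in limma. For TNFRSF19 the knockdown effect minus the ATF7 effect was -3.49 ± 0.74 (SE; adjusted p = 0.0446), where 0.0613 percent of genes were called lower. Against the JDP2 effect the difference was -3.38 ± 0.74 (SE; adjusted p = 0.0288), where 0.299 percent were. Its own log2 differences were 0.40 in the ATF7 knockout and 0.28 in the JDP2 knockout. No other member of the 26 tested was called in this limma fit or by edgeR. A replicate block changed this for TNFSF10, as given in the last section. Both calls were lost without a filter on low values and with equal totals. They were also lost without any 1 of the 4 control libraries, and in 13 of 18 fits without 1 library against ATF7 and 5 of 18 against JDP2. TNFSF10 differed by 2.59 and 2.53 in these contrasts (adjusted p = 0.131 and adjusted p = 0.08), and TNFSF4 by 1.59 and 2.28 (adjusted p = 0.382 and adjusted p = 0.106). DESeq2 called TNFSF10 in both contrasts (adjusted p = 0.0224 and adjusted p = 0.0144) and TNFSF4 against JDP2 (adjusted p = 0.0356), where it called 2.94 and 8.1 percent of all genes. Without the 3 libraries far from the median, limma called TNFRSF1B in both (adjusted p = 0.0267 and adjusted p = 0.0441), where 2.82 and 3.97 percent of all genes were called. Between the JDP2 and ATF7 knockouts limma called no member of 27, where 0 percent of all genes were called and 0 members had an unadjusted p under 0.05. edgeR and DESeq2 also called 0 members there.

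The 2 hairpins were compared, and no member of the 25 tested was called by limma, where 0 percent of all genes were, or by edgeR or DESeq2. At an unadjusted p under 0.05 there were 3 members (7.2 percent of all genes). TNF was higher with shRNA 2 (203, 171 and 351) than with shRNA 1 (121, 95.2 and 33.1), with no overlap, a log2 difference of 1.65 ± 0.52 (SE; 0.51 to 2.79) and a limma adjusted p of 0.589. Against shRNA control (105 and 47.8) TNF differed by 0.03 with shRNA 1 and by 1.68 with shRNA 2. LTB, its neighbour in the major histocompatibility complex, differed between hairpins by 1.24 and TNFRSF1A by 0.98, both with an adjusted p of 0.589.

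Between the clones of a knockout, no member was called by limma. For ATF7 clone 2 against clone 1, 0.303 percent of all genes were called and 2 members had an unadjusted p under 0.05 (6.62 percent of all genes). They were the related ligands TNFSF13B (-1.08 ± 0.29, SE) and TNFSF13 (-1.30 ± 0.39), with adjusted p-values of 0.245 and 0.34. TNFSF13B was called by DESeq2, where 1.73 percent of all genes were, and not by edgeR. TNFSF13 stood at 901, 713, 299 and 355 in the ATF7 libraries, with both libraries of clone 1 above both of clone 2. For JDP2 clone 2 against clone 1, 0.136 percent of all genes were called. There 1 member, again TNFSF13 (0.91), had an unadjusted p under 0.05 (2.48 percent of all genes), and its adjusted p was 0.993. edgeR and DESeq2 called 0 members between the JDP2 clones.

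Several members followed the replicate number within the knockout arm, which has libraries numbered 1 and 2 in each of its 5 groups. Replicate 1 was above replicate 2 in all 5 groups for 6 of 26 members (TNF, TNFRSF21, TNFRSF10B, TNFRSF10D, TNFRSF12A and TNFSF14), where 10.1 percent of all genes did so. It was below in all 5 for TNFSF10, FAS and TNFRSF13C, where 8.76 percent did. For TNF the pairs were 187 and 27.6 in the knockout control, 257 and 52.1, then 78.7 and 40.8 in the ATF7 clones, and 162 and 55.9, then 145 and 19.1 in the JDP2 clones. The gap within a group was larger than the difference between the means of the knockout control, ATF7 and JDP2 groups, and what the number stands for is not given in the labels. This pattern was noticed in the data and carries no test.

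**Figure D5:**
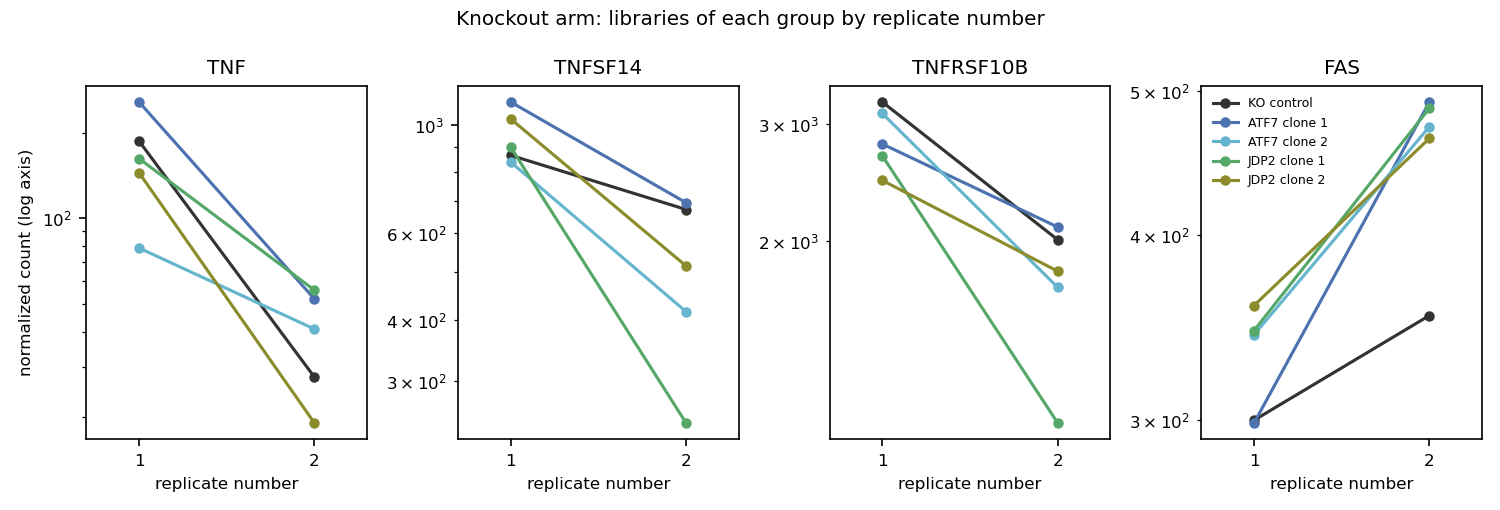
Normalized counts (log axes) of TNF, TNFSF14, TNFRSF10B and FAS in the knockout arm, with a line joining replicate 1 and replicate 2 of each of the 5 groups. TNF, TNFSF14 and TNFRSF10B are higher in replicate 1 of every group, and FAS is higher in replicate 2.

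The 13 members with a mean under 10 were 7 ligands (FASLG, LTA, TNFSF8, TNFSF11, TNFSF12, TNFSF15 and TNFSF18), the decoy TNFRSF11B, 4 TRAF-binding receptors (TNFRSF9, TNFRSF13B, TNFRSF17 and TNFRSF18) and the readthrough row. The highest means were those of TNFRSF9 (8.79), the receptor for TNFSF9, TNFRSF18 (7.46), TNFSF15 (5.74) and TNFRSF11B (4.67), the soluble decoy for RANK ligand. TNFSF12-TNFSF13 had 0 reads in every library, and a count of 0 allows up to 3 reads, which is 1.92 to 5.59 normalized counts depending on the library (counting error only). The low members did not spread evenly over libraries. Their summed level was 175.9 in ATF7 clone 2 replicate 1, 120.7 in IRF2BP2 shRNA 1 replicate 3 and 83.9 in JDP2 clone 1 replicate 2, and at most 51.3 in the other 16. The same ATF7 and shRNA 1 libraries had reads in 37 of 39 members, as against 29 to 36 elsewhere, and were those with the most genes detected (18875 and 19046). The part of that breadth in the low members' values was not tested.

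TNF receptor signalling genes were followed through 7 lists of 82 genes in all, of which 74 were tested in each comparison. In the knockdown limma called none of 21 adaptors and kinases, 12 ubiquitin ligases and deubiquitinases, 14 NF-kB genes, 9 shedding and membrane proteases, 6 TNF-induced proteins or 4 superfamily genes with other symbols. In the same order, 4, 3, 3, 4, 0 and 1 of these had an unadjusted p under 0.05, the share over all genes being the 14 percent given above. The median log2 change over all 74 was 0.20, against -0.03 for all genes. In the ATF7 knockout 0 of 74 were called by limma, with 5 at an unadjusted p under 0.05, where 7.09 percent of all genes were. FURIN, a protease that cleaves several membrane ligands, and RBCK1, a subunit of the linear ubiquitin ligase, had the highest levels there, with log2 differences of 0.45 and 0.23 (adjusted p = 0.761 and adjusted p = 0.936). In the JDP2 knockout 1 of 74 was called (0.674 percent of all genes), with 12 at an unadjusted p under 0.05, a share near the 16.8 percent of all genes. TRAF3IP2, an adaptor that links IL-17 receptors to TRAF proteins, had 503 and 522 in the knockout control and 158, 112, 148 and 105 in the JDP2 knockout. It fell by 1.98 ± 0.37 (SE), with a limma adjusted p of 0.0335. It was at 317 and 344 in shRNA control, 325 in wild type and 265, 253, 115 and 152 in the ATF7 knockout, so every JDP2 library and every ATF7 library was below all 5 controls. For ATF7 the log2 difference was -1.46 ± 0.37 (SE; limma adjusted p = 0.169). The call was lost without a filter on low values (adjusted p = 0.072) and without either knockout control (0.178 and 0.424). It was also lost without JDP2 clone 2 replicate 1 or 2 (0.0755 and 0.0927) or ATF7 clone 2 replicate 2 (0.0515).

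Across the 19 libraries, the 7 pairs of members with the highest Pearson's r in size over log2 levels are described, with no test, since points share libraries and size factors. TNFRSF19 ran opposite to TNFRSF1B (r = -0.84, Spearman's rho = -0.62) and to TNFSF10 (r = -0.83, rho = -0.75). It also ran opposite to TNFRSF21 (r = -0.78, rho = -0.59). TNFSF4 ran with TNFSF10 (r = 0.81, rho = 0.58) and with TNFRSF21 (r = 0.79, rho = 0.58). TNFRSF10B ran with TNFRSF10D (r = 0.80, rho = 0.39), and TNF with TNFRSF12A (r = 0.78, rho = 0.76).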

How the data were processed

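Per the labels' protocols, total RNA was column-purified with DNase digestion and made into mRNA libraries. Tools and build named in the submitters' processing notes are featureCounts, DESeq2 and hg38. No aligner, annotation or strand setting is given in the sources used here, and reads of overlapping, antisense or similar genes (TNFSF12-TNFSF13 and its parents, the TRAIL receptors) may be shared. The authors deposited DESeq2-normalized counts as a signal per gene and library. They also deposited 3 comparison tables with a base mean signal, a log2 fold change with its error, a Wald score, and p-values before and after adjustment.

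All 19 columns were used. Of 21 labelled samples, 2 marked low quality were not analysed here. The 388037 values were whole multiples of a step per library for 100 percent (tolerance 0.01), which recovered reads. The 12 pairs of libraries of a hairpin, clone or control group differed by at least 85.5 chi-square per gene, more than sampling noise.

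Genes with a mean of at least 10 over a fit's libraries were tested in limma 3.58.1 (R 4.3.3) with a trend on log2(value + 1), which understates changes of low genes, and called below a Benjamini-Hochberg adjusted p of 0.05 over all genes. Hairpins were fitted with shRNA control, and all clones with the knockout control. Interactions came from a joint fit. Alternatives were edgeR 4.0.16 and DESeq2 1.42.0 on recovered reads, a pseudocount of 4, no filter or a mean of 50, equal totals, a replicate block, all 5 controls, and each library left out. A further alternative, chosen after seeing the data, left out whichever of the 3 libraries far from the median a fit held. Scripts were tested on simulated data. Exon lengths and gene coordinates are from GENCODE 29 and promoters from RefSeq.

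The members and gene lists were chosen with earlier results of these data known. Named genes are members with a mean of at least 10, the 4 highest below it, and list genes that were called (up to 6 per comparison) or the 2 of highest level where none was. Values of every library are given for TNF, called members and the 2 highest of each role class. TNFSF10, TNFSF4, TNFRSF21, TNFRSF8, TNFRSF10A, TNFRSF4 and TNFSF13 were given more values after these were seen. Markers of other cell types were summed per library. Calls in the knockdown within 1 of the 7 gene lists are not reported here.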

Additional observations from a re-analysis of the deposited data

Results flagged for a closer look

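A library stood apart from the others of its group, by the gap to its nearest neighbour over the group's range, in 6 of 78 groups of values tested, where chance flags about 1 in 20. In the knockdown these were TNFRSF8 at 236 (next 39.8), TNFRSF19 at 9.65 (next 38.8) and TNFSF14 at 1128 (next 845), all in the library labelled shRNA 2 replicate 3. TNFRSF1A at 3479 (next 9470.4) and LTBR at 1941 (next 6069.6) stood apart in shRNA 1 replicate 3. TNFRSF4 at 106 (next 12.3) stood apart in JDP2 knockout clone 1 replicate 2. All 3 libraries are those far from the median over all genes.

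TNFRSF19 differed between the effects of the knockdown and of each knockout by the interaction test in limma. The difference was -3.49 (adjusted p = 0.0446) against the ATF7 effect and -3.38 (adjusted p = 0.0288) against the JDP2 effect.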

How the results depend on the processing

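TNFRSF19 kept its call in the knockdown under all 9 alternatives that left out no single library (-3.23 to -2.59, adjusted p 5.41e-06 to 0.0421). Leaving out 1 library gave -3.24 to -2.73, lost without either shRNA control. Members called in the knockdown numbered 4 with DESeq2, 6 with all 5 controls, and 5 without the libraries of this fit that lie far from the median. Without 1 knockdown library they numbered 1 to 4 (TNFRSF19, TNFRSF1B, TNFSF4 and TNFSF10 without shRNA 1 replicate 3, and TNFRSF19 and TNFSF10 without shRNA 1 replicate 1). All genes called there (228) became 124 with edgeR, 682 with DESeq2, 1561 with all 5 controls, 1251 without those 3, and 11 (without shRNA control replicate 1) to 609 (without shRNA 1 replicate 3).

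In the knockout fit the only far library was JDP2 clone 1 replicate 2. For ATF7 (33 genes), 19 were called with no filter, 223 with DESeq2 and 3 with all 5 controls, with 0 members called throughout. Without 1 knockout library 2 to 98 genes were called, the 98 being without that far library. For JDP2 (89 genes), 53 were called with no filter, 536 with DESeq2 and 919 with all 5 controls. Without 1 knockout library 12 to 125 genes were called, the 125 again being without the far library. There 1 member, TNFSF9, was called with DESeq2 (adjusted p = 0.0017) or without the far library, and 0 members without any other single library. Gene counts without a knockout control, which leave 1 control library, are not given. Between ATF7 clones DESeq2 called 1. For the interactions, 0 members were called with no filter or with equal totals, 2 without the far libraries, and 0 to 2 without 1 library. DESeq2 called 2 against ATF7 and 3 against JDP2. Equal totals moved the median of all genes to -0.22 for JDP2 and to 0.29 for the interaction with JDP2. The cause of these differences was not tested.

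Replicate numbers were not taken as pairing the libraries, since the labels give them no meaning and not every correlation between deviations of same-numbered libraries was over 0.1. They ran from -0.31 to 0.37 in the knockdown arm (3 of 7 over 0.1) and from -0.53 to 0.57 in the knockout arm (5 of 10 pairs of groups). With the replicate block, 209 genes and 1 member were called in the knockdown, 74 genes and 0 members for ATF7, and 161 genes and 1 member, TNFSF9 (adjusted p = 0.042), for JDP2. Each interaction called 2 members with it, TNFRSF19 and TNFSF10 (adjusted p = 0.0232 against ATF7 and 0.0145 against JDP2). Other member counts with the block stayed at 0.

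Control groups of 2 libraries, 1 line and 2 clones per knockout limit what these comparisons resolve, and members under 10 normalized counts were mostly untested.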
